A study of Mus musculus with 36 samples.

Results

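In the striatum of 4 inbred mouse strains, 71 of 45037 non-control probe sets stood apart in C57BL/6J: 46 read higher and 25 read lower there than in each of 129P3/J, DBA/2J and SWR/J. They were chosen on these same values, as probe sets whose C57BL/6J mean over 9 arrays lay more than 1 log2 unit (2-fold) above or below every other strain mean, and whose highest strain mean was above an intensity of 99.7, which served as the level of signal. The difference from the other strains is therefore what chose them, and it is given below as a description with no test. No contrast between treatments entered the choice. Each strain mean took in saline, acute and chronic arrays, however, so a change under morphine could widen or narrow a gap. From the saline arrays alone the rule gave 102 members, 60 of them shared with the 71. Each probe set was chosen without regard to the other probe sets of its gene.

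The tissue came from adult male mice of 8 to 10 weeks, and each of the 12 groups (4 strains, each given saline, acute morphine or chronic morphine) had 3 Affymetrix Mouse Genome 430 2.0 arrays, each from RNA of 3 pooled mice. On the first 4 days, mice of the saline and acute groups were given saline whenever the chronic mice were injected. A single 20 mg/kg injection of morphine on day 5 made up the acute treatment. Under the chronic treatment, morphine was given 3 times daily, 10 mg/kg at first, 20 mg/kg the next day and 40 mg/kg for another 2 days, and the final 40 mg/kg came on day 5. The striatum was taken 4 hours after the final injection of morphine or saline. P-values measure the spread between pools of mice, and with 3 arrays a group the precision is limited by their number. Values are log2 of the deposited intensity unless stated otherwise.

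An inbred strain is homozygous at nearly every locus, so a sequence variant fixed in 1 strain alone is carried by all its mice. Variants can change how much RNA a gene gives, which of its exons or ends are used, or how well a short array probe pairs with its target. On this array a probe set of 25-base probes reads a short stretch, mostly near the 3' end of a transcript, and many genes have several probe sets that read different stretches. C57BL/6J is also the strain of the mouse reference genome. In bulk tissue, fewer cells of a type and less RNA per cell cannot be told apart.

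Of the 71 members, 49 carried exactly 1 gene symbol, from 45 genes, 5 carried several symbols and 17 had no symbol. The tissue read as striatum: the medium spiny neuron genes Penk, Tac1, Drd1, Drd2 and Ppp1r1b had C57BL/6J means of 10.14 to 12.20, within -0.15 to 0.05 of the mean of the other strains. The 3 detected markers of cortical excitatory neurons were lower in C57BL/6J than that mean, with differences of -0.71 to -0.35 (Tbr1, Slc17a7 and Neurod6, none at 0), and the 3 detected oligodendrocyte markers lay 0.01 (Mbp), 0.37 (Mog) and 0.43 (Mag) above it. The part of these cell types in the members' strain differences was not tested. Array medians of intensity ran from 119 to 133. The first saline array of C57BL/6J (C57BL/6J saline replicate 1) stood apart, with a Gapdh 3' minus 5' control difference of 0.72 on the log2 scale against -0.11 to 0.12 on the other 35 arrays. It lay farthest from the other C57BL/6J arrays in 24 of the 71 members. Without it the rule gave 69 members, 66 of them shared with the 71.

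Sequences of members that the results below turn on are given first. Among the widest gaps above the other strains was that of a probe set annotated to Mir1931, a microRNA gene. Its mature form is shown because the name of the probe set rests on it, with the seed (bases 2 to 8) in capitals. The array reads transcripts primed from poly(A), so the mature microRNA itself was not measured. The sequence and the promoters after it are RefSeq's on GRCm38.p6.
mmu-miR-1931, chr10:93162879-93162900, plus strand: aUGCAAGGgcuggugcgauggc

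Promoters (250 bases before to 50 after the annotated start, 5' to 3' on the gene's strand) are shown for Cap1, the gene with the largest fall, Gabra2, whose probe sets fell together, and Rpgrip1 and Supt16, neighbours that differed in opposite directions. Capitals mark the TATA box letters TATAAA, the CCAAT box letters CCAAT and the GC box letters GGGCGG, each on either strand. No value here measures promoter activity.
Cap1 promoter, chr4:122886027-122886326, minus strand: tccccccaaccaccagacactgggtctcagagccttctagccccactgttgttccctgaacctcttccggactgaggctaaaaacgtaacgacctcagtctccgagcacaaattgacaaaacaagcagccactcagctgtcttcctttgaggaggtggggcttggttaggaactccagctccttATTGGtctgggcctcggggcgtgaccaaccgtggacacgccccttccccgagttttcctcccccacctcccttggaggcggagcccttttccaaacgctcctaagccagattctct
Gabra2 promoter, chr5:71095800-71096099, minus strand: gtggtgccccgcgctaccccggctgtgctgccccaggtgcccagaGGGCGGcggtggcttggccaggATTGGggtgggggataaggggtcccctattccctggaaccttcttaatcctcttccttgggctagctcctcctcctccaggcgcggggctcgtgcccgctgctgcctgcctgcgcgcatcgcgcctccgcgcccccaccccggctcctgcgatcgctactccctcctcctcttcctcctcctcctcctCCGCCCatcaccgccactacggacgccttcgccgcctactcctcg
Rpgrip1 promoter, chr14:52110653-52110952, plus strand: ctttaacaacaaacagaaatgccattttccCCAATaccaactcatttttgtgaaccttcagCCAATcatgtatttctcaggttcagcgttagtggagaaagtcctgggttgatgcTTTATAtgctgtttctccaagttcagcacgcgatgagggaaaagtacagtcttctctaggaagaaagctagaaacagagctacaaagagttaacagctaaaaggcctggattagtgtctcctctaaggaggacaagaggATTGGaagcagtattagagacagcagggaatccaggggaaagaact
Supt16 promoter, chr14:52197190-52197489, minus strand: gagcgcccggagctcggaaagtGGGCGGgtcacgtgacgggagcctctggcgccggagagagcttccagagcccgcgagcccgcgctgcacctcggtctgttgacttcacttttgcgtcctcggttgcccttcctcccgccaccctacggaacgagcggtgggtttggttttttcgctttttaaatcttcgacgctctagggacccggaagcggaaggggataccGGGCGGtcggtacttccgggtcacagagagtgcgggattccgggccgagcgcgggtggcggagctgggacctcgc

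The Cap1 stretch held 1 CCAAT match, on the opposite strand, and Gabra2 held 1 CCAAT and 2 GGGCGG matches. Rpgrip1 held 1 TATAAA and 3 CCAAT matches and 3 CpG dinucleotides, while Supt16 held 2 GGGCGG matches and 35 CpG dinucleotides. Of the 45 genes, 35 matched the promoter table by symbol, with 48 promoters. TATAAA was in 8.33% of these 48 and in 13.6% of all 32851 promoters, CCAAT in 45.8% and 37.4%, and GGGCGG in 54.2% and 35.7%. The median number of CpG dinucleotides was 18.5 in the 48 and 7 in all, a table that also holds genes with no signal in striatum. A match is a match of letters and was not tested as a site.

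The members were separated from the other strains array by array. In 62 of the 71, no C57BL/6J array overlapped any of the 27 arrays of the other strains (40 of 46 higher and 22 of 25 lower), and over all 27212 detected probe sets the share was 0.537%. The rule used these values, so nothing is read from that contrast. The members that overlapped were Arhgap26, Sox11, Gm13306, Rps4l, 2 probe sets with no symbol, Cramp1l, Ptp4a2 and Gas7. All 71 kept the sign of their gap within saline, acute and chronic arrays taken separately. Within a single treatment the gap was over 1 in 41 (saline), 39 (acute morphine) and 43 (chronic morphine) of the 46 higher members, and in 22, 22 and 19 of the 25 lower members. The other 3 strains lay close together: their means were within 0.5 of each other in 36 of the 46 higher and 23 of the 25 lower members.

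Cap1, cyclase-associated protein 1, which binds actin monomers and helps to recycle them for new filaments, had the largest gap. Its probe set 1417461_at read 6.59 at the lowest, 6.91 at the median and 7.31 at the highest of the 9 C57BL/6J arrays, and 10.61 to 11.01 on the other 27. The C57BL/6J mean was thus 3.85 below the nearest strain on the log2 scale, 14.5-fold in intensity. The second Cap1 probe set, 1417462_at, read 5.42 to 7.01 in C57BL/6J and 9.84 to 10.47 elsewhere, 13.6-fold apart. Both are built on the same design record and are not independent readings of the gene, and no other probe set of Cap1 was present. The other genes of actin turnover on the list did not share the difference. Over the 10 detected genes, Cap1 among them, the median difference between C57BL/6J and the mean of the other strains was -0.06. Over all detected probe sets it was -0.01. Cap2, the paralog of Cap1, was at 10.24 in C57BL/6J and 10.27 to 10.39 in the others. Pfn1, a profilin, came next to Cap1, with 9.89 in C57BL/6J against 10.45 to 10.71.

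Tmem87a, a Golgi membrane protein, read 6.28 at the lowest, 6.94 at the median and 7.62 at the highest C57BL/6J array and 9.15 to 9.67 on the others, a gap of 2.31 or 4.96-fold. Its paralog Tmem87b differed far less, at 8.53 against 8.67 to 9.08. Gas7, a growth-arrest-specific protein of neurons, had the same gap (-2.31) but far wider spread, from 4.46 to 8.28 in C57BL/6J and from 7.47 to 10.69 elsewhere, so that its arrays overlapped. The 2 other detected Gas7 probe sets did not share this gap. The stronger had a mean of 10.14 in C57BL/6J against 10.50 to 10.53, and the other was higher there, at 7.04 against 6.62 to 6.74.

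Smaller gaps below the other strains were found for genes of several functions. Parp3, an ADP-ribosyltransferase of DNA repair, had a mean of 5.90 in C57BL/6J and lay 3.02-fold lower. Hddc3, a hydrolase with an HD domain, had a mean of 7.36 and lay 2.86-fold lower. Wdfy1, an endosomal protein with a FYVE domain, had a mean of 6.82 and lay 2.85-fold lower. These 3 did not overlap with the other strains on any array.

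Supt16, a subunit of the FACT histone chaperone, read 5.24 to 6.33 in C57BL/6J and 6.53 to 7.48 elsewhere. Gnb1, a beta subunit of heterotrimeric G proteins that carries signals from opioid and dopamine receptors, read 8.50 to 9.14 against 9.77 to 10.43. Gabra2, the alpha2 subunit of the GABA-A receptor, read 7.18 to 7.87 against 8.24 to 9.06. The gaps were 1.27 for Supt16, 1.22 for Gnb1 and 1.17 for Gabra2. Tpbg, a trophoblast glycoprotein that inhibits Wnt signalling, lay 1.15 lower and Lsm12, an RNA-binding protein, 1.12 lower. Of 11 detected GABA-A subunit genes, taken by their strongest probe set, only Gabra2 was beyond 0.2, at -1.04 from the mean of the other strains. The median of the 11 was -0.01.

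Among the higher members, the Mir1931 probe set read 7.96 at the lowest, 8.31 at the median and 8.63 at the highest C57BL/6J array and 3.08 to 5.21 on the others, all of which were under the signal level. Prune2, a brain protein with a BCH domain, read 7.77 to 10.09 in C57BL/6J against 3.84 to 5.91. Both gaps came to 3.78 but rest on readings under the signal level in the other strains, so they do not rank the members. Kcnq5, a voltage-gated potassium channel subunit of the M-current, read 8.42 to 9.46 against 4.38 to 5.95, again under the signal level in the other strains, a gap of 3.48. Cd99l2, a membrane protein related to CD99, had members at 3.52 and 2.30 above the nearest strain, again from a shared design record.

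Rpgrip1, which anchors the RPGR protein in the photoreceptor cilium, read 9.42 to 10.86 against 5.17 to 7.82. The other 5 detected genes of the photoreceptor and cilium list lay between -0.36 and 0.15 of the mean of the other strains. Prdx2, a peroxiredoxin that removes hydrogen peroxide, read 9.89 to 10.41 against 7.17 to 7.65. Mtmr7, a myotubularin-related phosphatase, read 9.25 to 9.55 against 6.16 to 7.39. All 3 had non-overlapping arrays, with gaps of 2.85, 2.66 and 2.51.

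Trp53bp1, a DNA-damage protein that binds p53, had 2 members at 2.60 and 2.56, from a shared record. Neither was detected, with C57BL/6J means of 6.76 and 6.78, just above the signal level. Pttg1, the securin that holds back chromatid separation, had 2 members at 2.48 and 1.68 that share no record. The Pttg1 member with the wider gap read 10.18 to 10.95 in C57BL/6J and 7.54 to 8.71 elsewhere. Ak4, a mitochondrial adenylate kinase, lay 2.47 higher, Arhgap26, a GTPase-activating protein, 2.40 higher, and Stk25, a Golgi-associated kinase, 2.13 higher. Arhgap26 was also not detected, and it overlapped with the other strains, at 5.18 to 8.66 against 2.74 to 5.27. Gm13306, a predicted chemokine gene with near-identical copies in the genome, was 1.06 above 129P3/J and more than 3 log2 units above DBA/2J and SWR/J, whose means were 5.28 and 5.25. Its reading cannot be assigned to a single copy. A second chemokine probe set, annotated to several copies of Ccl21 and predicted genes, had a wider gap of 2.88, at 7.12 to 8.14 in C57BL/6J and 2.74 (the intensity floor) to 5.86 elsewhere. Over the 8 chemokine ligand genes detected by a probe set with a single symbol, Gm13306 among them, the median difference was -0.04.

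Many members were near background on 1 side. In 26 of the 46 higher members, all of the other 3 strain means were at or under the signal level, and in 12 of the 25 lower members the C57BL/6J mean was. A difference that starts near background is compressed or inflated by how the intensity floor was set, and 58 of the probe sets qualified when 16 was added to each intensity before the log.

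Each probe set was chosen without regard to the others of its gene. Any other probe set that met the rule was a member itself and is left out of the counts here. The second members of Pttg1, Cd99l2, Trp53bp1 and Cap1 are therefore not among them, and the counts are no unselected check of agreement. Among the probe sets that were not members, those of higher and lower genes differed. For the higher members, 19 of 28 genes had another detected probe set, 33 in all, and 0 of the 33 had a C57BL/6J mean more than 0.5 above every other strain. All 33 were within 0.5 of the nearest strain. For the lower members, 13 of 17 genes had 23 other detected probe sets, and 7 of them, in 6 genes, were also lower in C57BL/6J by more than 0.5, with the remaining 16 within 0.5. In the other strains the same count was 3 of 18 higher and 3 of 67 lower for 129P3/J, 4 of 37 and 8 of 71 for DBA/2J, and 0 of 11 and 4 of 48 for SWR/J. Probe sets of a gene share its RNA, and these counts were not tested.

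The contrast between probe sets of a single gene was wide. Prdx2 was 2.66 higher in C57BL/6J by its member, while its other probe set read 10.91 there and 10.96 to 11.01 in the other strains. Kcnq5 had 2 other detected probe sets, at 8.01 and 9.48 in C57BL/6J against 7.96 to 8.05 and 9.61 to 9.72. The other detected Prune2 probe set read 10.06 against 10.13 to 10.33. Trp53bp1, whose members were not detected, had 4 other detected probe sets and Sox11, a neurodevelopmental transcription factor, had 5, none beyond 0.5. The third Pttg1 probe set read 6.84 against 6.87 to 7.08. An undetected probe set of Ang, angiogenin, an RNase, was 1.86 above the nearest strain beside the member at 1.96.

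The lower genes whose detected probe sets moved together were Gabra2, Gnb1, Tpbg, Supt16, Lsm12 and Clasp2, a protein that stabilises microtubule ends. Gabra2 was lower by all 4 of its detected probe sets, with gaps of -1.17, -0.99, -0.59 and -0.42. Gnb1 had a gap of -0.91 at the strongest of its probe sets (10.73 in C57BL/6J against 11.65 to 11.67), while the other read 5.59 against 5.63 to 7.52. Tpbg followed at -0.96, Clasp2 at -0.75 and -0.40, Supt16 at -0.67 and Lsm12 at -0.54. An undetected probe set of Clasp2 went the other way, at 4.54 in C57BL/6J against 3.06 to 3.45. Wdfy1 had gaps of -0.43 and -0.39 at its other detected probe sets. For Parp3, Fam32a, Ociad1 and Cramp1l no other detected probe set was below the nearest strain. Of the 3 other probe sets of Ptp4a2, a phosphatase, 2 lay 0.10 and 0.11 below and 1 lay 0.26 above.

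Same-gene members also shared little of their variation within groups. Over 36 arrays, with group means removed, the correlation between the paired members was 0.22 for Cap1, 0.25 for Pttg1, 0.23 for Trp53bp1 and -0.30 for Cd99l2. These are descriptions over arrays that share the same RNA pools. The median residual SD was 0.25 for the 34 higher members that were detected, 0.20 for the 25 lower members and 0.19 for all detected probe sets. Probe sets whose names end in _a_at or _s_at can read several transcripts. They made up 21.7% and 13.0% of the higher members (10 and 6 of 46), undetected ones included. Among the lower members the shares were 12.0% and 4.0%, and among all detected probe sets 12.3% and 5.74%.

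Several members lay close together in the genome. Of the 45 genes, 11 had another member gene within 20 protein-coding genes, in 6 pairs, against 13 of 49 for the probe sets private to 129P3/J, 16 of 60 for DBA/2J and 5 of 38 for SWR/J. Rpgrip1 and Supt16 on chromosome 14 had no protein-coding gene between them and differed in opposite directions. Cfap54, a protein of cilia, was lower and the Mir1931 probe set higher on chromosome 10 with 1 gene between them. Trp53bp1 and Ppip5k1, an inositol phosphate kinase, were both higher on chromosome 2 with 1 gene between, and Tmem87a, lower, was 19 genes from Trp53bp1. Abhd14a, higher, and Parp3, lower, were 3 genes apart on chromosome 9, and Gabra2 and Ociad1, both lower, 14 genes apart on chromosome 5. Whether neighbours share a variant was not tested.

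The effect of morphine on the members was then compared. Treatment contrasts do not use the strain means. Those means took in the morphine arrays, though, so a change in C57BL/6J can have helped a member to qualify. Of the 71 members 59 passed the filter on low signal (34 higher and 25 lower), and the 12 that did not were all higher members. Over the 4 strains, acute morphine changed 2 of the 59 in limma at an adjusted p under 0.05, against a background of 4.69% of all detected probe sets. They were Abhd14a, a hydrolase, which rose by 0.29 on the log2 scale (SE 0.078, adjusted p = 0.0308), and a probe set with no symbol, 1455892_x_at, which rose by 0.26 (SE 0.053, adjusted p = 0.0037). Neither passed in limma when same-numbered arrays of a treatment were taken as a random block (adjusted p = 0.214 for Abhd14a and 0.0797 for 1455892_x_at). For chronic morphine 3 of 59 passed, all down, against a background of 4.73%. Both shares, 3.39% and 5.08% of the members tested, are near the background. In 13 of the 59 members no array of the other 3 strains was above the signal level, so they passed the filter through C57BL/6J alone, and 2 of the 3 chronic calls were among them.

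Under chronic morphine over the 4 strains, Hddc3 fell by 0.25 (SE 0.056, adjusted p = 0.00921). With the random block in limma Hddc3 did not pass (adjusted p = 0.171). The other 2 calls were the Mir1931 probe set and Adamts4, a protease that cuts the proteoglycan aggrecan. Outside C57BL/6J they read at most 5.21 and 6.11, under the signal level, so their fits over 4 strains rest on background readings in 3 of them and no change is read from these calls. In C57BL/6J the Mir1931 means were 8.49 ± 0.20 (SD, n = 3) without morphine, 8.26 ± 0.27 after acute and 8.15 ± 0.19 after chronic morphine. Adamts4 in C57BL/6J was 7.64 ± 0.42 without morphine, 6.86 ± 0.014 after acute and 7.08 ± 0.099 after chronic morphine.

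Between chronic and acute morphine over the 4 strains, 20 of 59 members (33.9%) passed, 11 of them higher after chronic morphine, against a background of 23.4%. Higher after chronic morphine were Gas7 by 1.19 (SE 0.27, adjusted p = 0.00304), Ptp4a2 by 0.76, Pttg1 by 0.62 and Pi4k2a, a phosphatidylinositol 4-kinase, by 0.34. For Gas7 and Ptp4a2, chronic replicate 2 was the lowest chronic array in each strain, and neither was called for chronic morphine against saline. Ptp4a2 in 129P3/J read 11.49, 10.46 and 11.23 in chronic, 10.43, 10.37 and 10.48 in acute and 11.35, 10.49 and 11.45 in saline arrays. Its saline replicates 1 and 3 were near the highest chronic array in DBA/2J and SWR/J too, but not in C57BL/6J. Lower were Wdfy1 (-0.36, adjusted p = 0.000669), Cfap54 (-0.42) and Abhd14a (-0.35). Of the 20, 3 (Adamts4, Mir1931 and Kcnq5) were under the signal level on every array of the other strains. For cortical excitatory neurons, the summed level of the 3 detected markers (Slc17a7, Neurod6 and Tbr1, none at 0) was 9.32 to 10.65 on the acute and 9.47 to 11.14 on the chronic arrays, and their part in the result was not tested.

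Within C57BL/6J, acute morphine changed 0 of 59 members in limma, against a background of 0.294%. At an unadjusted p under 0.05 there were 8 members (13.6%) against 10.8% of all detected probe sets. Chronic morphine changed 5 of 59 (8.47%) against a background of 1.75%. Cap1 (1417461_at) read 6.87, 6.59 and 6.63 in the saline arrays and 7.31, 6.93 and 7.10 in the chronic arrays. It rose by 0.42 (SE 0.086, adjusted p = 0.0159), and the groups did not overlap. The other Cap1 probe set read 5.42, 6.54 and 6.04 in saline and 7.01, 6.24 and 6.61 in chronic arrays, which overlapped, and did not pass.

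Pi4k2a read 8.27, 8.45 and 8.63 in saline and 9.10, 8.79 and 9.37 in chronic arrays. It rose by 0.64 (SE 0.14, adjusted p = 0.0197) and was the 1 member that also differed between chronic and acute morphine in C57BL/6J, by 0.74 (SE 0.14, adjusted p = 0.016, background 0.228%). Tmem87a read 6.28, 6.86 and 7.18 in saline and 7.62, 7.04 and 7.50 in chronic arrays, a rise of 0.62 (SE 0.16, adjusted p = 0.04) with overlapping groups. Its saline reading of 6.28 was under the signal level. Hddc3 read 7.61, 7.50 and 7.53 in saline and 7.19, 7.21 and 6.82 in chronic arrays, a fall of 0.47 (SE 0.11, adjusted p = 0.0323) with no overlap. A probe set with no symbol, 1440305_at, read 7.88, 8.57 and 8.43 in saline and 8.98, 8.62 and 8.91 in chronic arrays, a rise of 0.54 (SE 0.14, adjusted p = 0.0473) with no overlap.

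These calls rested on single arrays. Without C57BL/6J saline replicate 1, Cap1 alone passed, at 0.50 (adjusted p = 0.0113), while Tmem87a was at 0.37 (adjusted p = 0.235), Pi4k2a at 0.55 (adjusted p = 0.108), Hddc3 at -0.44 (adjusted p = 0.124) and 1440305_at at 0.34 (adjusted p = 0.259). The share of all detected probe sets called moved as well, to 0.261% without that array. Without saline replicate 2 there were 2 calls (0.492% of all detected) and without saline replicate 3 there were 9 (4.07%). Without chronic replicate 1 or chronic replicate 3 there were 0 (0.232% and 0.0808%), and without chronic replicate 2 there were 15 (11% of all detected). The summed level of the cortical markers was 8.22 to 10.18 on the saline and 9.53 to 10.27 on the chronic C57BL/6J arrays, and its part in these changes was not tested. The Pi4k2a difference between chronic and acute arrays was lost in 5 of the 36 fits that left out an array, those without C57BL/6J acute replicate 1, 2 or 3 or chronic replicate 1 or 3 (adjusted p up to 0.161).

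Whether C57BL/6J responded unlike the other strains was tested directly. No member passed for the acute response, the chronic response or the strain by treatment interaction, and neither did any of the 27212 detected probe sets (background 0%). The paper, with its own test over several normalizations, reports probe sets with a strain by treatment interaction. The lack of calls belongs to this fit and does not show equal responses. At an unadjusted p under 0.05 there were 13 members (22% of 59) for the acute response against 15.8% of all detected probe sets, 16 (27.1%) for the chronic response against 9.34%, and 13 (22%) for the interaction against 5.14%. The 59 include the 13 members that passed the filter through C57BL/6J alone. For those 13 the change in C57BL/6J is set against background readings in the other strains, so no excess is read from these shares. The smallest p for the chronic response was that of Cap1, whose change in C57BL/6J exceeded the mean change of the other strains by 0.49 (SE 0.099, adjusted p = 0.222), followed by Pi4k2a at 0.69 (SE 0.16, adjusted p = 0.243).

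At the edge of the rule, the members just inside it were 1448754_at (1.00 above), Exosc9, an exosome subunit (1.02 above), Sc5d, a sterol desaturase (1.02 above), Clasp2 (1.01 below), Cramp1l (1.02 below) and 1455136_at (1.02 below). Just outside were Pgap2 (0.98 above), Nudt19 (0.98 above), 1458426_at (1.00 above), Map2, a dendritic microtubule protein (0.97 below), Nfia (0.98 below) and Gabra2 by its probe set 1455444_at (0.99 below).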

How the data were processed

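Expression was measured on 36 Affymetrix Mouse Genome 430 2.0 arrays. The authors used dChip 2006 to normalize the arrays and to turn perfect match and mismatch probe signals into 1 model-based expression index per probe set, and the deposited values are these, a linear intensity for 45101 probe sets with a floor of 6.69 (3.68% to 4.53% of values per array). Probe sets were named from GEO's platform annotation, updated to RefSeq symbols. Log2 of the intensity was taken, and 27212 probe sets above an intensity of 99.7 on at least 9 of 36 arrays were tested. A model of 12 group means (24 residual degrees of freedom) was fitted with limma 3.58.1 under R 4.3.3, with Benjamini-Hochberg adjustment over all tested probe sets, at 0.05 for contrasts and at 1% for the interaction F-test. The random block used duplicateCorrelation with statmod 1.5.0. Tables used Python 3.11.15, pandas 2.3.3 and numpy 2.4.6, and the scripts recovered known changes planted in simulated data. The simulated noise was independent between arrays, so that run does not cover variation shared by same-numbered arrays.

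Named genes are the 12 largest gaps in each direction, genes with several members, members called in a test (up to 10 per test), members of the lists and members at the edge of the rule; other members named, such as Ociad1 and Fam32a, were chosen after their values were seen. The members and lists were chosen with earlier results of these data known. Lists shown are actin turnover, GABA-A subunits, chemokine ligands, photoreceptor and cilium, Golgi 7-span and cell type markers; the mitochondrial redox, MHC class I, SLAM family and ectonucleotidase lists held no member, with median differences of -0.09, 0.11, -0.07 and -0.01. Alternatives covered the strain summary, gap, signal floor, pseudocount of 16, quantile normalization, treatments used, filter, moderation, replicate block, C57BL/6J arrays alone and the omission of each array. RMA and PDNN values, present calls and PCR data were not used here.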

Additional observations from a re-analysis of the deposited data

Results flagged for a closer look

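On the 9 C57BL/6J arrays of each member, the highest or lowest array was compared with its nearest neighbour relative to the whole range; chance marks about 1 group in 20, and 10 of 71 members were marked, 8 of them for C57BL/6J saline replicate 1. On that array Stk25 read 9.51, Ern1, a sensor of unfolded proteins, 7.09, Tpbg 6.39, and the probe sets with no symbol 1431214_at 4.91, 1431213_a_at 2.74 (the floor), 1437798_at 7.22, 1455892_x_at 9.93 and 1440305_at 7.88. It was the lowest of the 9 arrays in each of these except 1437798_at, where it was the highest. Its Gapdh 3' minus 5' difference of 0.72 was marked too. In a probe set annotated to several chemokine genes C57BL/6J saline replicate 2 was low at 7.12, and in 1448754_at C57BL/6J chronic morphine replicate 3 was low at 8.10.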

How the results depend on the processing

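The 71 members were chosen on a threshold. A gap over 0.8 gave 116, a gap over 1.5 gave 39, and no signal floor gave 115. Strain medians, a pseudocount of 16 and quantile normalization kept the count within 1.5 times, and leaving out each array gave 68 to 75. Saline arrays alone gave 102 (52 above and 50 below), 60 of them shared with the 71. Morphine arrays alone gave 66 (40 above and 26 below), also with 60 shared.

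The count of members called changed with the fit. Percentages are shares of all probe sets called in the same fit, and with no filter all 71 members are tested in place of 59. For acute morphine over 4 strains it was 2, against 1 with no filter (1.84%), 6 with log2(intensity + 16) (4.99%), 0 with the random replicate block (0.676%) and 9 with the fixed replicate block (8.51%). For chronic morphine over 4 strains it was 3, against 5 after quantile normalization (5.4%), 0 with the random block (0.331%) and 6 with the fixed block (7.51%). For chronic versus acute over 4 strains the random block gave 9 (7.15%) in place of 20. Within C57BL/6J, acute morphine gave 1 call with log2(intensity + 16) (0.312%). Chronic morphine gave 2 with no filter (0.338%), 12 with the fixed block (4.16%) and 0 from the 9 C57BL/6J arrays alone (0%), which also gave 0 for chronic versus acute (0%). For the response of C57BL/6J against the other strains, the random block gave 1 acute call (Adamts4, under the signal level elsewhere; 0.948%) and 2 chronic calls (Cap1 and Pi4k2a; 0.11%), and the fixed block 1 chronic call (Cap1; 0.0147%). The cause of these shifts was not tested.

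Leaving out each array in turn gave 1 to 9 calls for acute and 3 to 9 for chronic morphine over 4 strains, and 18 to 24 for chronic versus acute. Within C57BL/6J it gave 0 to 1 for acute, 0 to 15 for chronic and 0 to 6 for chronic versus acute. It gave 0 to 5 for the chronic response and 0 to 0 for the acute response of C57BL/6J against the others and for the interaction. The 31 called changes of members were never reversed in direction. Over their alternatives they passed in 1213 cases and fell short in 95. Most of these fits left out a single array and reused the rest, so the total is no measure of robustness. With the random block 14 of the 31 passed and 17 fell short. From the C57BL/6J arrays alone, 0 of the calls within that strain passed and 6 fell short.

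Same-numbered arrays of a treatment deviated together across strains (mean correlation 0.26 over 54 pairs, lowest -0.47), with 79.6% of pairs above 0.1, against a mean of -0.13 and 20.4% for arrays of different number. Of the same-numbered pairs 90.7% were above 0, against 25.9% of the pairs of different number. The labels tie no number to a shared batch, so what the same-numbered arrays shared is not known. The fit without the block was kept as the main one, so its p-values do not allow for this shared variation. Calls lost with the random block rest on that choice. The consensus correlation of the random block was 0.24. Signal near background limits most members: 26 of the 46 higher members had no other strain above the signal level.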
